A study of Mus musculus with 3 samples.

Results

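Mouse small intestinal organoids kept in ENR+CV were compared with organoids passaged out of ENR+CV into ENR, across all genes, in single cells profiled with Seq-Well. Seq-Well catches single cells with barcoded mRNA capture beads in an array of nanowells, and transcripts are counted as unique molecular identifiers (UMIs). Both media contained EGF (50 ng/mL), Noggin (100 ng/mL) and R-spondin 1 (500 ng/mL). ENR held no further factor, and ENR+CV also held CHIR99021 at 3 µM and valproic acid at 1 mM. Both cultures were taken at day 6, and each was run on 1 array that pooled 6 wells of a single donor. The organoids grew in Matrigel from crypts of C57BL/6 mice of 3 to 6 months. Every ENR cell descends from cells grown in ENR+CV, so a gene higher in ENR+CV is at the same time a gene lower after CHIR99021 and valproic acid were withdrawn, and the 2 additives always came together. Since each side is 1 library, no test was run, and the condition and the array cannot be told apart.

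Cells were chosen by depth alone, from 1000 to under 8000 UMIs with at least 400 genes. That kept 2545 of 2651 ENR cells and 985 of 1092 ENR+CV cells, which are 3530 of the 6249 cells that the merged table holds for all 3 libraries of the series. No kept barcode was shared between both libraries. The separate ENR+CV table is attached to the sample labelled for another condition of the series, ENR+CD, and the reverse, so the condition was taken from the cell names of the merged table, and every result here rests on those names. The levels below are the UMIs of a gene summed over the kept cells of a library and scaled to the total of those cells (CPM), with an exact Poisson 95% interval in parentheses, and ratios have exact binomial 95% intervals. These cover counting error only, not the spread between cultures. A gene was measured where the pair held at least 20 UMIs, which was so for 11962 of 23271 genes, and was called where its CPM was at least 2-fold apart with separate intervals. A log2 ratio is that of ENR+CV over ENR, so it is positive where ENR+CV was higher, with counts under 3 set to 3.

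CHIR99021 inhibits the kinase GSK3, which otherwise marks beta-catenin for destruction, and so mimics a Wnt signal at the base of the crypt. Beta-catenin acts with TCF/LEF factors on target genes, several of which (Axin2, Nkd1, Rnf43, Znrf3, Notum) dampen the pathway as feedback. Valproic acid is a short-chain fatty acid that inhibits histone deacetylases. Crypt base stem cells (ISCs) divide under Wnt and Notch signals, and their daughters turn into absorptive enterocytes or into secretory Paneth cells (PCs), goblet cells, enteroendocrine cells (EECs) and tuft cells.

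ENR+CV cells were deeper, with a median of 2499 UMIs and 1430 genes a cell, against 1553 UMIs and 826 genes in ENR. When every cell was thinned to 1000 UMIs, the medians were 728 and 604 genes, so most but not all of the gap in genes went with depth. Depth was therefore handled in bins of 1000 to under 2000, 2000 to under 4000 and 4000 to under 8000 UMIs, which held 1751, 593 and 201 ENR cells and 409, 318 and 258 ENR+CV cells. The kept cells held 5095089 ENR UMIs and 2942252 ENR+CV UMIs, at 15.26 and 10.18 reads per UMI.

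Over all measured genes 1897 (15.9%) were higher in ENR+CV and 694 (5.8%) were lower, and the median gene had a log2 ratio of 0.35. A CPM is a share of its library, and PC products and mitochondrially encoded genes took a larger share of ENR (values below), and with totals that leave out mitochondrial, ribosomal, structural and PC genes the median log2 ratio was 0.06, with 1149 genes higher and 979 lower. Centred on the median gene, the split was 1030 higher and 1079 lower. In the 3 depth bins separately 1199, 1303 and 1065 genes were higher and 447, 418 and 468 were lower. Of 9201 genes measured in all 3 bins, 468 (5.09%) were called higher in each of them and 247 (2.68%) lower in each of them. Of the genes called in the whole libraries and measured in all 3 bins, 468 of 1212 higher and 247 of 453 lower genes were thus called in every bin.

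**Figure D1:**
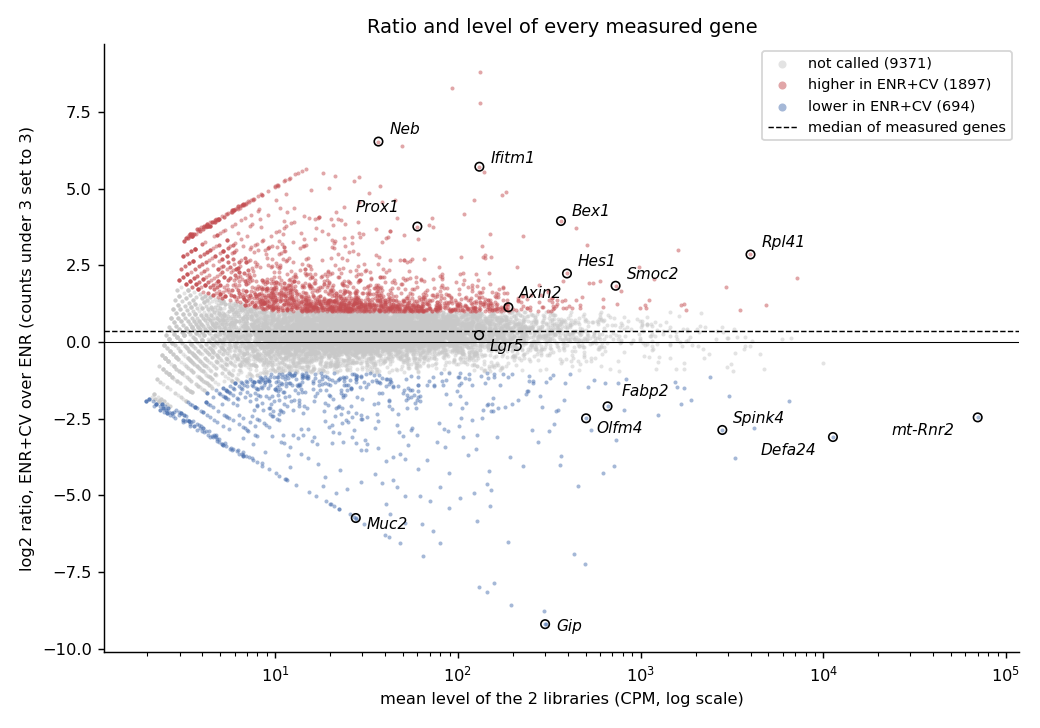
The log2 ratio of ENR+CV over ENR (y axis) is plotted against the mean level of both libraries in CPM (x axis, log scale), with 1 point for each of 11962 measured genes and the dashed line at their median of 0.35. Red points are the 1897 genes higher in ENR+CV and blue points the 694 lower genes, and the diagonal edges on the left are genes with very few UMIs in 1 library.

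Wnt feedback and target genes were higher in ENR+CV for 9 of 19 measured members and lower for none, with a median log2 ratio of 0.94 against 0.35 over all genes. Summed, the list took 0.09725% of ENR UMIs and 0.1693% of ENR+CV UMIs. In depth bins 6 of 16, 9 of 18 and 7 of 18 measured members were higher, and 8 were still higher after centring on the median gene. By ratio, the members fell apart into genes with wide ratios, genes with moderate ratios, and genes not called. Those not called include the genes best known as ISC and proliferation markers, which were at like levels in both libraries.

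The genes with wide ratios were the following, and all had few UMIs in ENR. Prox1, a homeobox transcription factor (chr1:190118035-190170714), had 42 UMIs in ENR and 329 in ENR+CV, or 8.24 CPM (5.94 to 11.1) and 112 CPM (100 to 125), 13.6-fold higher (9.82 to 19.2). Tnfrsf19, or Troy, a receptor of crypt base cells (chr14:60963875-61046490), stood at 6.48 CPM (4.46 to 9.1) and 78.5 CPM (68.7 to 89.3), 12.1-fold higher (8.39 to 18). Nkd1, a feedback inhibitor that binds Dishevelled (chr8:88521354-88594884), stood at 1.96 CPM and 32.6 CPM (10 and 96 UMIs), 16.6-fold higher (8.66 to 35.8). These 3 genes thus had counting intervals far from each other in both libraries. Lef1, a DNA-binding partner of beta-catenin (chr3:131110471-131224356), had 1 UMI in ENR and 65 in ENR+CV, a ratio of 113 that counting leaves between 19.5 and 4513. Apcdd1, a secreted Wnt inhibitor, had 3 and 17 UMIs, a ratio of 9.81 (2.84 to 52.3). Notum, which strips the lipid from Wnt ligands, had 3 and 7 UMIs and was below the 20 needed, as was Nkd2.

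The genes with moderate ratios ran from 2.18-fold for Axin2 to 4.28-fold for Sp5. Sp5, a zinc-finger repressor of Wnt targets (chr2:70474923-70477729), stood at 14.1 CPM (11.1 to 17.8) in ENR and 60.5 CPM (51.9 to 70.1) in ENR+CV, 4.28-fold higher (3.24 to 5.71). Rnf43, a ubiquitin ligase that removes Frizzled receptors (chr11:87662722-87735539), stood at 64.8 CPM and 187 CPM, 2.88-fold higher (2.51 to 3.31). Sp5, Rnf43, Prox1 and Tnfrsf19 were the 4 members called in all 3 depth bins. Axin2, the scaffold of the beta-catenin destruction complex (chr11:108920349-108950783), stood at 119 CPM (110 to 129) and 259 CPM (241 to 278), 2.18-fold higher (1.96 to 2.43). Its log2 ratio was 1.37 and 1.07 in the lower and middle depth bins, and it was not called in 5 of 12 alternative settings, the highest bin and the centred scale among them. Bambi, a decoy receptor of the BMP and TGF-beta family, was 2.77-fold higher (1.84 to 4.22) on 40 and 64 UMIs, but had a log2 ratio of -0.26 in barcodes of 300 to under 1000 UMIs.

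The other 10 measured members were not called. Lgr5, the receptor of R-spondin and the defining ISC marker, stood at 120 CPM (111 to 130) in ENR and 141 CPM (128 to 155) in ENR+CV, a ratio of 1.17 (1.03 to 1.32), below the ratio of the median gene, which was 1.276. Ascl2, the transcription factor that sets ISC fate, had a ratio of 1.14 (0.942 to 1.38). Myc, the growth regulator, stood at 102 and 93.1 CPM, a ratio of 0.912 (0.785 to 1.06), and Ccnd1, a G1 cyclin, had a ratio of 1.07 (0.955 to 1.21). Sox9, a crypt transcription factor, had a ratio of 1.42 (1.27 to 1.57). Log2 ratios of Cd44, Ephb2, Ephb3, Znrf3 and Tcf7 were 0.16, 0.59, 0.77, 0.75 and 0.94. The intervals from Lgr5 to Sox9 all lie below a 2-fold difference, so counting depth was not what kept them from being called.

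Because Wnt targets are read through TCF/LEF sites, the 250 bases before each RefSeq start site (GRCm38.p6) were searched for CTTTGA, the core of such a site, on both strands. Among all 32851 windows 4544 (13.83%) held it. Windows were found for 13 of the 21 members, and 3 of their 20 windows held it. All 3 are among the 13 windows of called genes, and the share is near that over all windows. The windows are those of Sp5 (2 matches, starting 204 and 104 bases before the start), 1 of 4 Lef1 windows (180 and 120 bases before) and 1 of 2 Tnfrsf19 windows (201 bases before). They are shown, on the strand of the gene, with the matches in capitals (TCAAAG is the same core on the opposite strand), beside Axin2, whose window held none.

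Sp5 promoter, chr2:70474673-70474922, plus strand: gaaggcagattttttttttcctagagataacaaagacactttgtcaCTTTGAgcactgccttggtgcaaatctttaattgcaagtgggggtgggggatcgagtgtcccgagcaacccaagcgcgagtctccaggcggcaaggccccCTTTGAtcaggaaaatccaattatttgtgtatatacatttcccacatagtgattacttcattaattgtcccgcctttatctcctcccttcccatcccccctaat
Lef1 promoter, chr3:131156044-131156293, plus strand: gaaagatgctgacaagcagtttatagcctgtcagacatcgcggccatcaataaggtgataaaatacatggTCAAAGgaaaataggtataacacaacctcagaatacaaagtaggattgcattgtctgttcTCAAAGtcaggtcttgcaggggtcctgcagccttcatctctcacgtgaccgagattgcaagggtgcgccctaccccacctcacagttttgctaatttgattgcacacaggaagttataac
Tnfrsf19 promoter, chr14:61037988-61038237, minus strand: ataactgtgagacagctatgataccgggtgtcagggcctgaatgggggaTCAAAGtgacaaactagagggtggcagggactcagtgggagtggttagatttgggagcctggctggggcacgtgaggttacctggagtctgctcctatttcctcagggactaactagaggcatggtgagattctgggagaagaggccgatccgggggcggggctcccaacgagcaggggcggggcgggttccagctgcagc
Axin2 promoter, chr11:108920099-108920348, plus strand: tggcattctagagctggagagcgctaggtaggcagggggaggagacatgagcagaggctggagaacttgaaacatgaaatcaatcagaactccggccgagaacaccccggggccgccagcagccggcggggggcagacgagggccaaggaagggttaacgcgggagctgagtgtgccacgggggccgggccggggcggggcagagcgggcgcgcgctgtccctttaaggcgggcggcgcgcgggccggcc

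A match is a description of these letters and not a bound site, and the window without a match says nothing of sites elsewhere in the gene.

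Upstream of the targets, 6 of 24 measured Wnt ligands, receptors and transducers were higher and none was lower, against 15.9% and 5.8% of all genes. Their median log2 ratio was 0.65. No member was called in all 3 depth bins. Wnt3, the ligand that PCs give to neighbouring ISCs, stood at 10.4 CPM in ENR and 24.8 CPM in ENR+CV (53 and 73 UMIs), 2.38-fold higher (1.65 to 3.46). Gsk3b, which encodes the kinase that CHIR99021 inhibits, stood at 74.2 and 178 CPM, 2.4-fold higher (2.1 to 2.74), and was called in 8 of 12 alternative settings. Lgr4, the R-spondin receptor related to Lgr5, was 2.15-fold higher (1.88 to 2.46), and this was not kept on the centred scale. Lrp6, the Wnt co-receptor, had a ratio of 0.993 (0.801 to 1.23), and Tcf7l2, the main TCF factor of the crypt, a ratio of 1.19 (0.97 to 1.47).

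Among crypt base stem cell genes 8 of 21 were higher and 2 were lower (median log2 ratio 0.79), and after centring 5 were higher and 3 lower. Of these, Axin2, Rnf43 and Tnfrsf19, are Wnt targets described above. Smoc2, a secreted calcium-binding protein of the ISC signature (chr17:14279506-14404790), had most UMIs of the 8, with 320 CPM (305 to 336) against 1140 CPM (1102 to 1179), 3.56-fold higher (3.36 to 3.78). Mex3a, an RNA-binding protein of slowly cycling ISCs (chr3:88532395-88541396), was 4.9-fold higher (3.71 to 6.53) on 70 and 198 UMIs, and Soat1, which esterifies cholesterol, was 2.65-fold higher (2.4 to 2.92). Hopx and Rgmb, at 2.07-fold and 2.08-fold, lay near the limit and were called in 6 and 5 of 12 alternative settings.

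Olfm4, a secreted glycoprotein of ISCs and a Notch target (chr14:79984081-80023139), went the other way. It had 4351 UMIs in ENR and 447 in ENR+CV, or 854 CPM (829 to 880) and 152 CPM (138 to 167), 5.62-fold lower (5.1 to 6.21), in all 3 depth bins. Gkn3, a gastrokine also seen in ISCs, was 5.8-fold lower (3.7 to 9.57), from 211 to 21 UMIs. ENR+CV cells thus held more Smoc2, Mex3a and Tnfrsf19 and less Olfm4 and Gkn3, with Lgr5 and Ascl2 at like levels. The other members not called ranged from a log2 ratio of -0.93 for Bmi1 to 0.86 for Msi1.

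**Figure D2:**
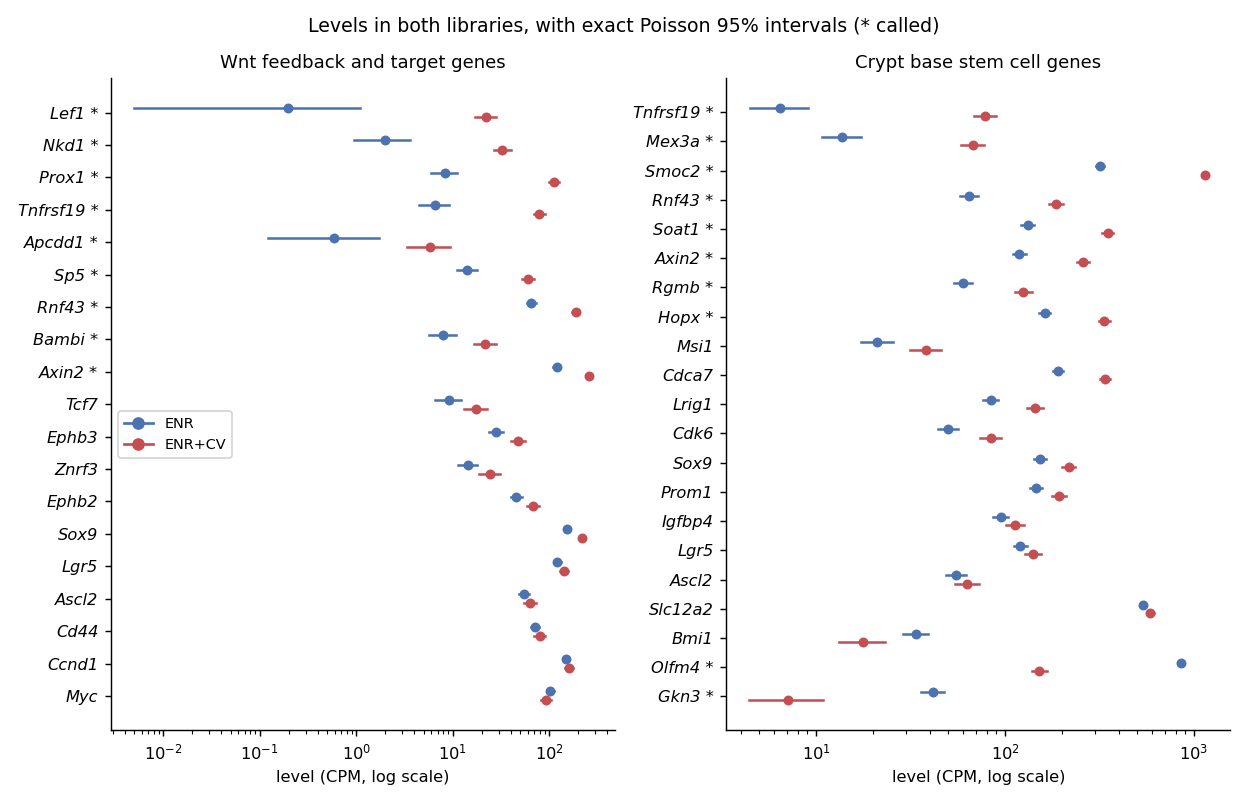
Levels in CPM (x axis, log scale) of the measured Wnt feedback and target genes (left) and crypt base stem cell genes (right) in ENR (blue) and ENR+CV (red), with exact Poisson 95% intervals as lines and called genes marked with an asterisk. Lef1, Nkd1, Prox1 and Tnfrsf19 are set apart by over an order of magnitude, while the points of Lgr5, Ascl2, Ccnd1 and Myc lie close together, and Olfm4 is higher in ENR.

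The same genes were then counted over single cells. After thinning every cell to 1000 UMIs, Smoc2 was found in 24.83% of ENR cells and 57.66% of ENR+CV cells (39.25% and 78.68% before thinning). Olfm4 was found in 48.33% and 9.442% (62.36% and 18.27% before). Prox1 was found in 0.8251% and 8.528% (1.336% and 20% before thinning). Tnfrsf19 was found in 0.7073% and 7.513% (1.257% and 18.58% before). Lgr5 was found in 9.666% and 14.21% (18.27% and 30.96% before thinning). Smoc2 was thus common in ENR+CV cells. The shares of Prox1 and Tnfrsf19 rose with depth, so how many cells express them cannot be read from shares at 1000 UMIs. For comparison, the 658 ENR cells rich in PC products (at least 5% of thinned UMIs, median depth 1551 UMIs) held Prox1 in 0.4559%, Smoc2 in 23.1% and Olfm4 in 45.74% of cells. They also held Mki67, a proliferation gene, in 22.34% of cells, against 26.21% of all ENR cells. This class is thus not PCs alone and does not measure free RNA. The Smoc2 and Olfm4 shares of ENR are close to those of its PC-rich cells, and how much of them is free RNA was not tested.

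In the Notch list 3 of 20 measured members were higher and 1, Olfm4, was lower, which is near the shares over all genes (15.9% and 5.8%). Hes1, the repressor that Notch switches on to keep cells out of the secretory fate (chr16:30064384-30067796), stood at 139 CPM (129 to 149) and 652 CPM (623 to 682), 4.7-fold higher (4.31 to 5.13), in all depth bins. After thinning 11.43% of cells in ENR and 37.36% in ENR+CV had a Hes1 UMI, and 9.271% of the PC-rich ENR cells. Lfng, which modifies Notch, and Rbpj, its DNA-binding partner, were 2.45-fold (1.88 to 3.22) and 2.41-fold (1.66 to 3.53) higher. Notch1 had a ratio of 1.09 (0.835 to 1.42), and the ligands Dll1 and Dll4 had ratios of 0.807 (0.575 to 1.12) and 1.06 (0.615 to 1.78).

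Of 14 measured secretory fate factors 4 were lower and 3 higher, against 5.8% and 15.9% of all genes. None of the lower members was called in all 3 depth bins. Summed, the list took 0.05674% of ENR UMIs and 0.0902% of ENR+CV UMIs. Atoh1, the factor that commits cells to secretory fate, had 54 UMIs in ENR and 9 in ENR+CV, 3.46-fold lower (1.7 to 7.98). After thinning it was found in 1.061% (0.7003 to 1.54) of ENR cells and 0.5076% (0.165 to 1.181) of ENR+CV cells, with overlapping intervals. Spdef, which matures goblet cells and PCs, had 80 and 9 UMIs, 5.13-fold lower (2.57 to 11.6), and Creb3l1 and Creb3l4, factors of the secretory apparatus, were lower too. Sox4 was 2.58-fold higher (2.37 to 2.82), and Klf4 and Foxa1 were also higher. In the whole libraries Hes1 was thus higher and Atoh1 and Spdef lower, while both lists held members called in both directions. The Notch receptor and ligands named above were not called.

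Products of the PC, goblet, EEC, enterocyte and tuft lineages were mostly lower in ENR+CV. Of measured members, 31 of 35 PC products, 13 of 14 goblet products, 19 of 26 EEC genes, 17 of 25 enterocyte genes and 5 of 6 tuft genes were lower, against 5.8% of all genes. Median log2 ratios were -3.71, -3.54, -2.39, -1.55 and -2.15. Members with few UMIs entered only through their level in ENR, and of the tuft genes (Dclk1 40 and 4 UMIs, Rgs13 39 and 3) 2 were measured in the lowest depth bin and none in the others, with none called in a bin. Summed, PC products made up 4.5% of ENR UMIs and 0.6726% of ENR+CV UMIs, goblet products 0.8846% and 0.1263%, EEC genes 0.5615% and 0.03307%, and enterocyte genes 0.5121% and 0.2382%.

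Among PC products, Defa24, an alpha-defensin, stood at 20228 and 2356 CPM, 8.58-fold lower (8.38 to 8.8). It was found in 85.46% of thinned ENR cells and 32.59% of thinned ENR+CV cells, and Defa17 in 67.7% and 7.411%. How much of this is free RNA was not tested, here and for the other lineage products. AY761184, another defensin, had 5014 and 19 UMIs. Alpha-defensin genes are near-identical copies among which reads can be split, so the values of single members are uncertain. Itln1, an intelectin that binds microbial sugars, was 2.81-fold lower (2.7 to 2.93) in the whole libraries, but its log2 ratio was -0.20 in the highest depth bin, and 1.54 among cells with under 2% lineage products.

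The 2 PC-list members that were higher were Reg3b and Reg3g, bactericidal lectins that enterocytes also make. Reg3b had 122 UMIs in ENR and 815 in ENR+CV, 11.6-fold higher (9.55 to 14.1), and Reg3g 179 and 703 UMIs, 6.8-fold higher (5.76 to 8.06). Reg3b sat in few cells, since the top twentieth of ENR+CV cells held 76.93% of its UMIs and 1 cell alone held 12.27%.

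Goblet genes included Muc2, the gel-forming mucin, with 278 UMIs in ENR and 2 in ENR+CV, a ratio of 80.3 (22 to 666) in the direction of ENR. Agr2, which folds mucins, stood at 682 and 52 CPM, 13.1-fold lower (11.2 to 15.5), and Tff3, a trefoil peptide, at 2091 and 399 CPM, 5.24-fold lower (4.93 to 5.57). Zg16, a lectin of mucus granules, had 107 UMIs and none, and its symbol is not listed in the separate ENR+CV table. Muc2, Agr2 and Tff3 thus ranged from Tff3, still plainly found in ENR+CV, to Muc2, with 2 UMIs there, while Zg16 may be missing from that table rather than undetected.

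Hormone genes of EECs had some of the widest ratios. Cck, cholecystokinin, had 3083 UMIs in ENR and 2 in ENR+CV, a ratio of 890 (246 to 7354) in the direction of ENR. Gcg, proglucagon, had 1990 and 1, Nts, neurotensin, 654 and 1, and Tac1, the substance P precursor, 1593 and 4. Sst, somatostatin, had 283 and 0 UMIs, and its symbol is not listed in the separate ENR+CV table, so no ratio is given. Reg4 and Chgb, which mark EECs more widely, were less far apart, with Reg4 at 1182 and 60.8 CPM (19.4-fold lower, 16.7 to 22.7) and Chgb at 1344 and 81.2 CPM (16.5-fold lower, 14.5 to 18.9). The log2 ratio of Reg4 was -2.98, -3.66 and -6.64 from the lowest to the highest depth bin, so the gap was widest in the deepest cells.

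Enterocyte genes were more mixed. Sis, sucrase-isomaltase, stood at 445 and 61.2 CPM, 7.27-fold lower (6.24 to 8.51), and Apoa1, an apolipoprotein, had 702 and 11 UMIs. Fabp1, the liver-type fatty acid binding protein, was at 774 and 875 CPM, a ratio of 1.13 (1.07 to 1.19). Of 11 intestinal identity factors and epithelial markers 2 were lower, namely Isx, a homeobox factor that curbs vitamin A uptake (488 and 20 UMIs, 14.1-fold lower, 9.02 to 23.3), and Hnf4g (2.24-fold lower, 1.72 to 2.96).

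The share of cells rich in such products was also lower for PC, EEC and goblet products. Cells in which PC products took at least 5% of thinned UMIs were 658 of 2545 in ENR (25.85%, Clopper-Pearson 95% interval 24.16 to 27.6) and 15 of 985 in ENR+CV (1.523%, 0.8548 to 2.499), with 193 and 4 cells within 20% of that limit. EEC-rich cells were 1.847% and 0.203%, goblet-rich cells 2.593% and 0.7107%, and enterocyte-rich cells 0.5894% and 0.7107%. Such a class is a range of a score and not a cell type, and the part of free RNA in it was not tested. Lineage products took under 2% of UMIs in 939 ENR cells (36.9%) and in 930 ENR+CV cells (94.42%). Among these cells alone, 1664 genes were higher and 503 lower in ENR+CV.

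**Figure D3:**
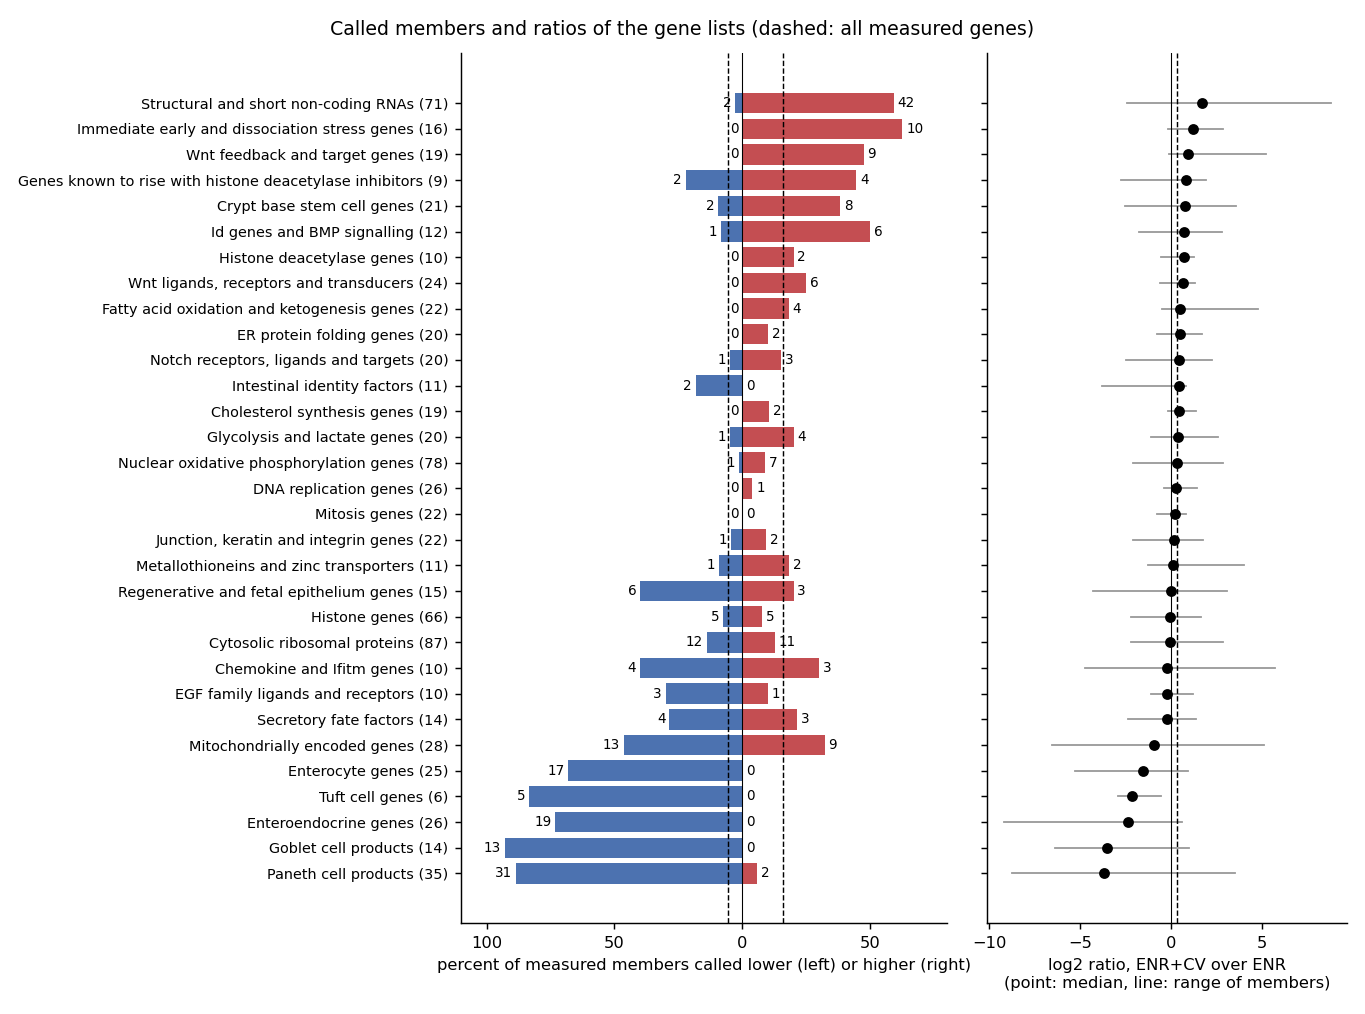
For each gene list with at least 6 measured members (number in parentheses), bars give the percent of members called lower (blue, left) or higher (red, right) in ENR+CV with the counts at their ends, and the right panel gives the median (point) and range (line) of the log2 ratios. Dashed lines mark all measured genes (5.8% lower, 15.9% higher, median 0.35), and the lists run from structural RNAs and immediate early genes at the top to PC products at the bottom.

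Defining markers of cells other than epithelium were near zero in both libraries, though some list members were not. Of immune genes, Ptprc had 1 and 2 UMIs, Cd3e none and Cd74 0 and 1. Itgam, an integrin of myeloid cells, had 201 and 94 UMIs and was not called. Lyz2, a lysozyme of macrophages that the paper also names as a PC signature gene, had 256 and 26 UMIs and was lower. Of stroma and endothelium, Col1a1 had 0 and 6 UMIs, Col3a1 1 and 2, Pdgfra 2 and 2, Pecam1 3 and 1, and Cdh5 none. Summed, the immune list had 483 ENR and 135 ENR+CV UMIs and the stroma list 283 and 768, the latter led by Vim (177 and 727), with Acta2, smooth muscle actin, lower at 90 and 15, and red blood cell genes 2 and 1. Epcam, the epithelial adhesion molecule, was at 1211 and 1690 CPM and was not called.

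Proliferation genes were mostly within a 2-fold difference. None of 22 mitosis genes was called in either direction and 1 of 26 DNA replication genes was, with median log2 ratios of 0.20 and 0.28. Mki67, the proliferation antigen, stood at 384 and 366 CPM, a ratio of 0.954 (0.884 to 1.03), and was found in 26.21% and 25.99% of thinned cells. Top2a, a topoisomerase of dividing cells, had a ratio of 1.29 (1.2 to 1.38), and Pcna, the replication clamp, of 0.766 (0.694 to 0.845). Cells in which mitosis genes took at least 1% of thinned UMIs were 1.69% of ENR cells (1.225 to 2.269) and 3.959% of ENR+CV cells (2.83 to 5.373), with 103 and 74 cells within 20% of that limit. The 1 replication gene called was Ccne1, the G1/S cyclin, at 14.9 and 40.5 CPM, 2.71-fold higher. Of 66 histone genes 5 were higher and 5 lower, against 15.9% and 5.8% of all genes.

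For the histone deacetylases, which valproic acid inhibits, 2 of 10 measured genes were higher and none was lower, against 15.9% and 5.8% of all genes, so the list is not set apart by this count. Hdac1 stood at 70.8 and 173 CPM, 2.45-fold higher (2.13 to 2.81), and Hdac3 at 63.6 and 143 CPM, 2.25-fold higher (1.94 to 2.6). They were called in 10 and 8 of 12 alternative settings, and neither was called on the centred scale. Of 9 genes known from other systems to rise with such inhibitors, 4 were higher and 2 lower. H1f0, the replication-independent linker histone (chr15:79028450-79030504), rose from 229 CPM (216 to 243) to 866 CPM (832 to 900), 3.78-fold (3.52 to 4.05), in all depth bins, and was found in 17.84% and 52.89% of thinned cells, against 15.05% of PC-rich ENR cells. Gadd45b, a stress sensor, was 2.7-fold higher (2.18 to 3.35), and Hexim1 and Klf6 were near 2-fold and were called in 9 and 6 of 12 alternative settings. Clu, clusterin, had 59 and 9 UMIs and Tubb3 35 and 3, both lower. Cdkn1a, the p21 cell cycle inhibitor often raised by these compounds, stood at 139 and 209 CPM, a log2 ratio of 0.59, and was not called.

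Among metabolic genes, 4 of 22 genes of fatty acid oxidation and ketogenesis were higher and none was lower (median log2 ratio 0.51), near the 15.9% of all genes. The 4 members with most UMIs, Etfb, Hadh, Etfa and Hadha, were not called, with ratios of 1.41, 1.13, 1.43 and 1.55. Named after their values were seen, Acadl, an acyl-CoA dehydrogenase, was 3.28-fold higher (2.8 to 3.85), Cpt1a, which admits fatty acids to mitochondria, 2.77-fold higher (2.18 to 3.52), and Ppargc1a, a coactivator of mitochondrial genes, had 35 and 47 UMIs. Of glycolysis and lactate genes 4 of 20 were higher and 1 lower, and of cholesterol synthesis genes 2 of 19 were higher, against 15.9% and 5.8% of all genes.

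Mitochondrially encoded transcripts took 16.48% of UMIs in ENR and 3.889% in ENR+CV. Per cell the median was 14.65% and 2.413%. Within the depth bins the ENR medians were 15.27%, 14.04% and 12.04% and the ENR+CV medians 4.978%, 2.069% and 1.485%, so the gap was there at every depth. Of 28 measured genes 13 were lower, and these were 12 protein-coding genes and the large ribosomal RNA. The 9 higher genes were all tRNA genes. mt-Rnr2, the large ribosomal RNA, stood at 118407 and 21555 CPM, 5.49-fold lower (5.45 to 5.54). mt-Cytb, cytochrome b, was 5.61-fold lower, mt-Nd1 3.81-fold lower and mt-Co1 3.4-fold lower, while mt-Co2 went from 806 UMIs to 5. mt-Tc rose from 58 to 601 UMIs, 17.9-fold (13.7 to 23.9), and mt-Ta 24.5-fold (15.2 to 42.1). mt-Rnr1, the small ribosomal RNA, ran from a log2 ratio of 0.62 in the lowest depth bin to -1.66 in the highest and was not called. Of 78 nuclear oxidative phosphorylation genes 1 was lower and 7 were higher, against 5.8% and 15.9% of all genes. Their median log2 ratio of 0.31 was near the 0.35 of all genes. Cox4i1, a core subunit of cytochrome oxidase, stood at 1754 and 2493 CPM and was not called.

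**Figure D4:**
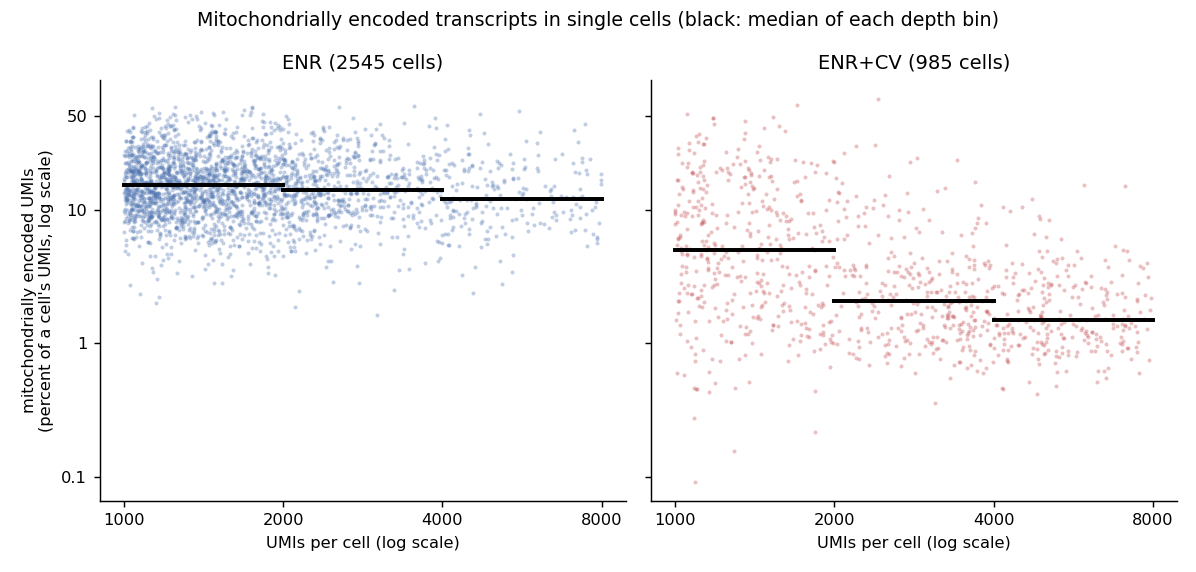
The percent of a cell's UMIs on mitochondrially encoded genes (y axis, log scale) is plotted against its UMIs (x axis, log scale) for 2545 ENR cells (left) and 985 ENR+CV cells (right), with black lines at the median of each depth bin. ENR medians lie at 12.04% to 15.27% and ENR+CV medians at 1.485% to 4.978%, and in the lowest bin ENR+CV cells also spread over the ENR range.

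Since the libraries differed in mitochondrial share, the comparison was repeated in cells with under 10% mitochondrial UMIs. These were 619 ENR cells (24.32%) and 832 ENR+CV cells (84.47%). Whether the mitochondrial share of a cell goes with the other differences was not tested. Among them 1434 genes were higher and 548 lower, and 8 Wnt targets were higher. The limit did not make the libraries alike, since the median mitochondrial share of these cells was 7.896% in ENR and 1.992% in ENR+CV.

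Ribosomal protein genes changed in both directions, 11 of 87 higher and 12 lower, against 15.9% and 5.8% of all genes. They took 11.77% and 12.71% of UMIs. Rpl41, the shortest of these proteins, rose from 971 to 7020 CPM, 7.23-fold (7.01 to 7.46), Rpl37a was 4.17-fold higher and Rps27 6.82-fold higher (4.94 to 9.57), while Rpl10, Rpl12 and Rpl7a were 4.47-fold, 4.33-fold and 2.79-fold lower. Many of these genes have near-identical pseudogene copies, so their counts are uncertain. Structural and short non-coding RNAs were higher for 42 of 71 members and lower for 2, with a median log2 ratio of 1.73, and took 0.5586% and 1.235% of UMIs. The gap narrowed with depth, from 0.589% and 2.628% in the lowest bin to 0.4892% and 0.7456% in the highest. Rpph1, the RNA of RNase P, was 8.06-fold higher, with log2 ratios of 4.10, 2.85 and 2.46 from the lowest to the highest bin, and Snord13 was 13.1-fold higher. Rny1, a Y RNA that is not on the list, was 30-fold higher (23.1 to 39.5). Malat1, a nuclear RNA, was at 3539 and 3916 CPM. The shortest transcripts were called more often. Of 666 measured genes with a median transcript under 500 bases 36.3% were higher and 16.1% lower, against 15.8% and 3.67% of 2917 genes of 2000 to under 4000 bases. In the classes from 500 bases up the share higher lay between 13.6% and 15.8%. Among protein-coding transcripts with at least 100 UMIs it was 15.6% and 18.2% of 154 short genes, and 13.1% and 2.43% of 2634 genes of 2000 to under 4000 bases. There the short genes were thus set apart mainly by the share called lower.

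Short RNAs named for a miRNA hairpin were among the called genes. Their counts are of the annotated hairpin gene and its surroundings and do not measure a mature arm. mmu-mir-6236 had 6 UMIs in ENR and 774 in ENR+CV, Mir3068 had 11 and 133, 20.9-fold higher (11.3 to 43), and Mir692-1 had 183 and 20. The mature sequences that RefSeq gives for them (GRCm38.p6) are shown with the seed, bases 2 to 8, in capitals, so that each hairpin can be told, and no seed is shared.

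mmu-miR-6236, chr9:110281353-110281371, plus strand: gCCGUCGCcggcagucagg
mmu-miR-3068-3p, chr12:87437685-87437706, minus strand: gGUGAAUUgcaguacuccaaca
mmu-miR-3068-5p, chr12:87437724-87437747, minus strand: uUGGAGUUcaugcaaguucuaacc
mmu-miR-692, chr17:6895259-6895279, minus strand: aUCUCUUUgagcgccucacuc

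Immediate early and dissociation stress genes were higher for 10 of 16 measured members and lower for none, against 15.9% and 5.8% of all genes. Their median log2 ratio was 1.20. Egr1, an early growth response factor, rose from 218 to 827 CPM, 3.8-fold (3.54 to 4.09), and Atf3, a stress response factor, from 65.4 to 356 CPM, 5.45-fold (4.81 to 6.18). Fos and Jun were not called, at 369 and 445 CPM and at 412 and 808 CPM. On the centred scale 5 members were higher, and in cells with under 10% mitochondrial UMIs also 5. These genes are also raised while cells are dissociated, and the part of handling in them was not tested.

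Among Id genes and BMP signalling 6 of 12 were higher and 1 lower, against 15.9% and 5.8% of all genes, and 2 were higher in all 3 depth bins. Id3 and Id2, inhibitors of basic helix-loop-helix factors, were 3.36-fold (2.93 to 3.85) and 2.61-fold higher, and Bmp2 fell from 41 to 7 UMIs. Id1 and Bmpr1a were not called, with ratios of 1.2 (1.01 to 1.42) and 1.07 (0.864 to 1.33). Of EGF family genes Hbegf was 2.33-fold higher, while Egfr was 2.14-fold lower at 24.7 and 11.6 CPM. Of 15 regenerative and fetal epithelium genes 6 were lower and 3 higher. Their median log2 ratio was 0.01, with a range from -4.28 to 3.07. Summed, the list took 0.058% of ENR UMIs and 0.06882% of ENR+CV UMIs. The 4 members with most UMIs, Krt7, S100a6, Cyr61 and Lgals3, were not called. Named after their values were seen, Ly6a (Sca-1) was 7.14-fold lower and Anxa3 9.37-fold lower. Chemokine and Ifitm genes were lower for 4 and higher for 3 of 10. Ccl25, which draws lymphocytes to the gut, was 4.37-fold lower, and Ifitm2 3.14-fold higher.

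The largest differences in favour of ENR+CV that were called in all 3 depth bins lay outside the lists of crypt genes. Ifitm1, an interferon-induced membrane protein (chr7:140967221-140969825), had 25 and 757 UMIs, or 4.91 CPM (3.17 to 7.24) and 257 CPM (239 to 276), 52.4-fold higher (35.2 to 81.5), and was found in 0.4322% and 18.98% of thinned cells. Boc, a Hedgehog co-receptor (chr16:44485049-44558897), had 11 and 215 UMIs, 33.9-fold higher (18.5 to 68.8). Cubn, the endocytic receptor of vitamin B12 with intrinsic factor (chr2:13276338-13491813), had 5 and 122 UMIs, 42.2-fold higher (17.6 to 132). Neb, the giant protein nebulin of muscle thin filaments (chr2:52136647-52378474), had 4 and 214 UMIs, the latter in 99 cells. Nrgn, neurogranin, had 4 and 105, Crip2, a LIM protein, 11 and 186, Vwa3b 12 and 162, and Ccdc3 11 and 120 UMIs. Each of these genes had at most 25 UMIs in ENR.

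Further genes outside the rule for naming, picked once their values had been seen, were Bex1, Msx1, Gpc3, Igfbp2 and Tead2. Bex1, an adaptor protein of neurons and progenitors, had 229 and 2025 UMIs, or 45 CPM (39.3 to 51.2) and 688 CPM (659 to 719), 15.3-fold higher (13.3 to 17.6), and was found in 3.261% and 43.86% of thinned cells, against 4.407% of PC-rich ENR cells. Msx1, a homeobox factor, was 16.5-fold higher (11.1 to 25.5), Gpc3, an oncofetal glypican, 15-fold, Igfbp2 12.1-fold and Tead2, a partner of YAP, 10.2-fold. Vim, vimentin, had 177 and 727 UMIs, 7.11-fold higher (6.03 to 8.43), while the stroma collagens were near 0 as given above. Slc30a2, a zinc exporter of secretory granules, was 16.5-fold higher (12 to 23.2).

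**Figure D5:**
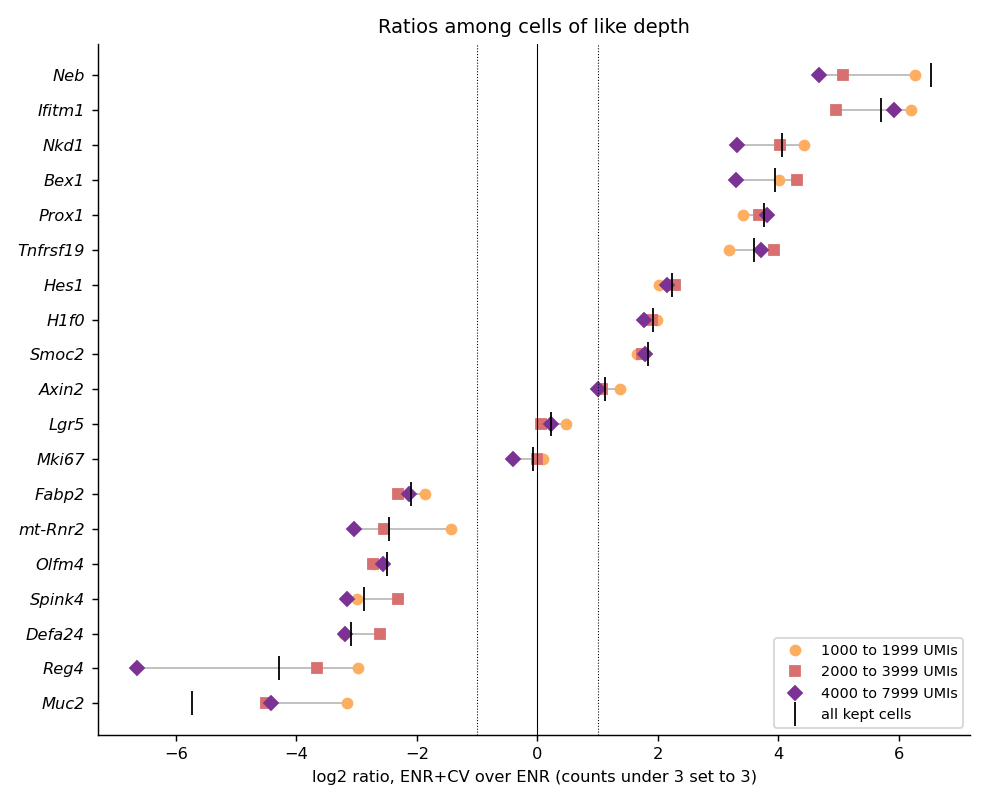
Log2 ratios of ENR+CV over ENR (x axis) are plotted for 19 genes in all kept cells (black ticks) and in cells of 1000 to under 2000 (orange circles), 2000 to under 4000 (red squares) and 4000 to under 8000 UMIs (purple diamonds), with dotted lines at a 2-fold difference. Genes such as Hes1, Smoc2, H1f0 and Olfm4 keep nearly the same ratio at every depth, while Reg4 and mt-Rnr2 run further down with depth and Axin2 lies at the line.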

How the data were processed

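Per the paper's methods, the authors demultiplexed the libraries with bcl2fastq, used a Drop-seq alignment portal on Galaxy with mm10, binned reads by cell barcode and collapsed UMIs. STAR and Seurat are named in the submitters' processing notes. Tool versions and annotation were not given in the sources used here. In the deposited merged table the values are raw UMI counts of cells with at least 1000 UMIs, and the 2506 columns of another condition were not used. The deposited tables of single libraries hold raw counts for ENR+CV and ENR+CD under each other's sample, as cell-by-cell identity showed, so names of the merged table were followed. Both library tables share 17065 gene symbols, 1604 were only in ENR and 3741 only in ENR+CV, and 8 pairs of symbols differ only in case (Atf7 held 53 and 0 UMIs, ATF7 0 and 37). Whether both libraries were counted with the same annotation is therefore uncertain, and a gene at 0 in 1 library may be missing from its table rather than undetected. This touches 19 of 1897 higher and 26 of 694 lower genes, whose symbols are absent from 1 table. Doublets were not called, and cells with 8000 or more UMIs were left out. Strand is not stated, so overlapping genes are uncertain.

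Levels, intervals, thinning (seed 11), depth bins and alternatives were computed in Python 3.11.15 with NumPy 2.4.6 and SciPy 1.17.1, and figures drawn with matplotlib 3.10.9. Scripts were tested on simulated data. Culture media and doses follow the paper's methods. Named genes were all members of the Wnt target and stem cell lists, the 4 members of every other list with most UMIs, and the 12 largest ratios each way among genes of at least 100 UMIs called in all 3 bins, without predicted genes and members of the structural RNA list. Other genes were named after their values were seen. Genes, lists and the comparison were chosen with earlier results of these data known. Positions are from GENCODE vM21 (GRCm38), which holds 21756 of 23271 symbols. Promoter and miRNA sequences are from RefSeq. Some named genes are not reported here.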

Additional observations from a re-analysis of the deposited data

How the results depend on the processing

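No paired analysis was possible because there is 1 library per condition, and for the same reason no replicate could be left out. The higher and lower counts of 1897 and 694 genes became 1199 and 447 in cells of 1000 to under 2000 UMIs, 1065 higher in cells of 4000 to under 8000 UMIs, 418 lower in cells of 2000 to under 4000 UMIs, 1030 and 1079 centred on the median gene, 1149 higher with restricted totals, 955 higher in barcodes of 300 to under 1000 UMIs, and 1086 and 417 with at least 100 UMIs. The 9 Wnt targets became 5 in barcodes of 300 to under 1000 UMIs. Lower PC products became 20 in cells of 4000 to under 8000 UMIs and 11 in cells with under 2% lineage products, where lower EEC genes were 12. Lower enterocyte genes became 11 and lower mitochondrially encoded genes 8 in cells of 1000 to under 2000 UMIs, and the latter 6 in barcodes of 300 to under 1000 UMIs. The cause was not tested. The log2 ratios of Bambi and Itln1 changed sign, Bambi to -0.26 in barcodes of 300 to under 1000 UMIs and Itln1 to 1.54 in cells with under 2% lineage products. Summing symbols that differ in case, an alternative chosen after seeing the data, gave 1894 and 693. Depth limits genes under 20 UMIs, such as Notum.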

Other observations

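Other gene groups are given here by their counts, to be set beside 15.9% higher and 5.8% lower over all genes. Of 20 ER protein folding genes 2 were higher and none lower, and of 22 junction, keratin and integrin genes 2 were higher and 1 lower. Metallothioneins and zinc transporters were higher for 2 of 11 and lower for 1, with Slc30a2 the largest ratio among them. Of 4 measured M cell genes 1 was higher and 2 lower, among them Marcksl1, 4.03-fold higher (3.43 to 4.74), and Ccl9, with 456 and 10 UMIs. Afp, the alpha-fetoprotein of fetal liver and gut, had 1471 UMIs in ENR and 2 in ENR+CV, a ratio of 425 (117 to 3510) in the direction of ENR. Tstd1, a thiosulfate sulfurtransferase, had 736 and 6 UMIs, and Ccl6, a chemokine, 430 and 0 UMIs, at least 82.8-fold lower if the 0 is taken as 3 UMIs in that library.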
